A study of Mus musculus with 6 samples.

Results

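The 32 genes described here encode neuropeptide precursors, the secreted proteins that neurons cut into signalling peptides such as somatostatin, neuropeptide Y, vasopressin and the enkephalins. They were chosen by name, with earlier results of these data known. Each gene was represented by the brightest transcript cluster (all probes of the array for a given stretch of transcript) that names it alone. Of the 32 genes, 31 were measured in this way, out of 19938 genes named alone and 35556 clusters in all. Agrp, which encodes agouti-related peptide, had no such cluster in the annotation used here and is not reported.

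Whole brain RNA came from male C57BL6 mice aged 7 to 8 weeks. In the LPS group 3 mice received an intraperitoneal injection of 4 mg/kg of lipopolysaccharide from Escherichia coli serotype 055:B5, and 3 vehicle-treated controls received PBS. All 6 brains were taken 48 hours after injection, after perfusion with PBS, and each was hybridized to its own Mouse Gene 1.0 ST array. The comparison asks how systemic inflammation changes gene expression in the brain. Whole brain RNA mixes all regions, so that the transcript of a small nucleus makes up little of the sample, and fewer cells of a type cannot be told apart from less RNA per cell.

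Neuropeptides are made as long precursors, which prohormone convertases and carboxypeptidase E cut within secretory granules, and they are released from dense-core vesicles to act on G protein-coupled receptors. Somatostatin marks a large class of inhibitory interneurons of the cortex and hippocampus that contact distal dendrites, and in the hypothalamus it restrains the release of growth hormone. Transcription of its gene is a textbook case of control by cyclic AMP, through a cAMP response element that binds CREB.

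In the brains of LPS-treated mice Sst, the gene of somatostatin, was lower than in vehicle-treated controls, by 1.51-fold. It was the only member with an adjusted p under 0.05 in limma, where 0.0619% of all clusters were lower and 0.652% higher, and no member was higher by that test. Another 10 members, among them those of neuropeptide Y, neurokinin B, vasopressin, melanin-concentrating hormone, gastrin-releasing peptide and CART, had all 3 LPS arrays below all 3 PBS arrays without passing the test, as 10.3% of all clusters did in that direction with or without passing it. The enkephalin and substance P precursors Penk and Tac1 had log2 fold changes of 0.02 and -0.10.

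Because Sst is the member that passed the test, its promoter is shown. These are the 250 bases before its start of transcription, from RefSeq, on chr16:23890845-23891094 of GRCm38.p6, minus strand, written 5′ to 3′ along the gene. Capitals mark the cAMP response element TGACGTCA, which lies 48 to 41 bases before the start.

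Sst: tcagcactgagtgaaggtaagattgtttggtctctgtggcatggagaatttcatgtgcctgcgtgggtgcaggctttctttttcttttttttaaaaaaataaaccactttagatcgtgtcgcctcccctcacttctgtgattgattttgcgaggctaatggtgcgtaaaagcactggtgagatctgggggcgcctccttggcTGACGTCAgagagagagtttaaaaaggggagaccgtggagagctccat

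Promoter windows of 300 bases, 50 of them after the start, were found for 25 of the 32 genes. The letters TGACGTCA, which read the same on both strands, stood in the windows of 3 of these 25 genes, Sst, Cartpt and Ucn, and in 1.79% of all 32851 windows. The elements of the other 2 genes, which encode CART and urocortin, are printed with 20 bases on each side so that their surroundings can be compared with those in Sst. They lie on chr13:99900768-99900815 and chr5:31138912-31138959, both on the minus strand, at 112 to 105 and 44 to 37 bases before the start.
Cartpt: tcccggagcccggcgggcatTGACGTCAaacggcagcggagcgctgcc
Ucn: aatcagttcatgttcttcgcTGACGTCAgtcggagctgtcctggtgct

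The 5 letters TGACG, which the longer element contains, were found on either strand in the windows of 14 of the 25 genes, and in 20.8% of all windows. These matches describe the letters only, and the binding of CREB was not measured. Windows for Penk, Crh, Grp, Npff, Pnoc, Gnrh1 and Agrp were not used here.

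Values are log2 expression after robust multichip average (RMA) normalization. As a measure of background, 1190 genes of olfactory and vomeronasal receptors, mostly silent in the brain, had array medians from 5.67 to 5.81 and 95th percentiles from 6.46 to 6.64. Of the 31 members, 20 lay above this percentile on 6 of 6 arrays, 4 on some arrays (Oxt, Gal, Pnoc and Ghrh) and 7 on none. The 7 were Pomc, Nmb, Nmu, Gnrh1, Prok2, Ucn and Kiss1, and their fold changes say little of their transcripts. Levels of different genes cannot be ranked, since each cluster has its own probes.

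**Figure D1:**
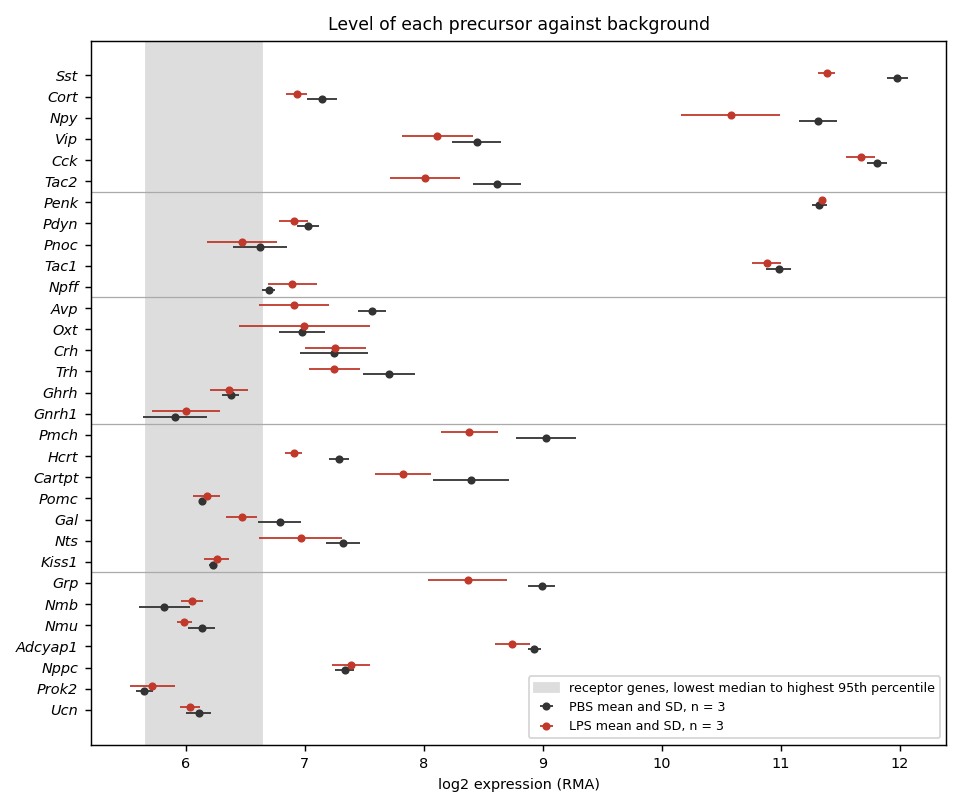
Log2 expression of the 31 precursor genes, grouped by role, as the mean of 3 PBS (dark) and 3 LPS (red) arrays with the SD as bars. The grey band spans the receptor genes from the lowest array median of 5.67 to the highest 95th percentile of 6.64, and Sst, Npy, Cck, Penk and Tac1 lie far above it.

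Over all 31 members, 11 had the LPS arrays below the PBS arrays without overlap and none had them above, against 10.3% and 9.73% of all clusters. By limma's unadjusted p below 0.05, 10 members were lower and none was higher, against 6.58% and 7.69% of clusters. With adjustment over all clusters 1 member was lower, against 0.0619% of clusters, and none was higher, against 0.652%. Among the 12365 genes named alone whose mean lay above background, the shares apart, under the unadjusted threshold and under the adjusted threshold were 13.5%, 9.32% and 0.0404% for lower genes and 11.2%, 7.25% and 1.08% for higher genes. The median log2 fold change of the members was -0.15 (range -0.73 to 0.23), against -0.02 for all genes named alone and -0.000925 for all clusters. The members had been proposed with results of these data known, so that these shares describe the list and are not a test of it.

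**Figure D2:**
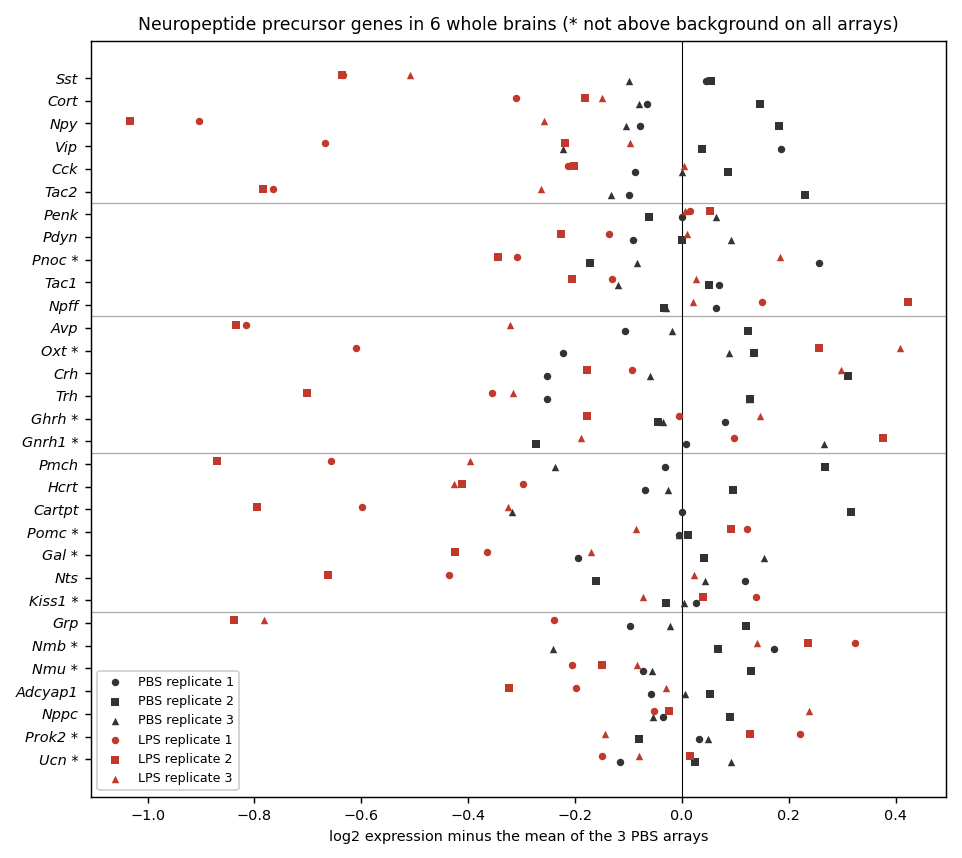
Log2 expression of each member minus the mean of its 3 PBS arrays, with a symbol per mouse, dark in PBS and red in LPS, and a shape for each replicate number. All 3 LPS arrays lie to the left of all PBS arrays for 11 genes, among them Sst, Npy, Tac2, Avp, Pmch and Grp, and to the right for none.

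Precursors made in cortical and hippocampal interneurons are given first. Sst (transcript cluster 10438730) had log2 expression of 12.02, 12.03 and 11.88 in the PBS mice and 11.34, 11.34 and 11.47 in the LPS mice. The groups were well apart, and the mean of LPS replicates 1 and 2 minus LPS replicate 3 was -0.12. Means were 11.98 ± 0.09 (SD, n = 3) after vehicle against 11.39 ± 0.07 (SD, n = 3) with LPS. The log2 fold change was -0.59 (95% confidence interval -0.79 to -0.40, limma's adjusted p = 0.0350). An exact two-sided permutation test of the 6 values gave p = 0.1, the smallest that 3 against 3 allows. The call was lost when any of the 3 PBS arrays or LPS replicate 1 or 2 was left out (limma's adjusted p from 0.103 to 0.188). It was also lost with the arrays centred on their medians (limma's adjusted p = 0.0567), with the replicate number as a block and in the methods' t-test (adjusted p = 0.128). Over all 21 alternative settings the log2 fold change stayed between -0.68 and -0.51, the latter with LPS replicates 1 and 2 both left out.

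Npy encodes neuropeptide Y, which many somatostatin interneurons also make and which arcuate neurons use to drive feeding. Its values were 11.23, 11.49 and 11.21 after vehicle and 10.41, 10.28 and 11.05 after LPS. LPS replicate 3 lay just under the PBS mice and the other 2 LPS mice far below, so that the groups did not overlap but the LPS mice were spread. The log2 fold change of -0.73 was the most negative of all members and did not pass the test (95% confidence interval -1.22 to -0.24, limma's adjusted p = 0.226). Without LPS replicate 3 it was -0.97 (limma's adjusted p = 0.00823), without LPS replicate 2 it was -0.58 (limma's adjusted p = 0.474), and with LPS replicates 1 and 2 both left out it was -0.26 (limma's adjusted p = 0.615).

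Tac2, which encodes neurokinin B, had values of 8.52, 8.85 and 8.48 after vehicle and 7.85, 7.83 and 8.35 after LPS. Again LPS replicate 3 lay near the PBS mice and the groups did not overlap. Its log2 fold change was -0.60 (limma's adjusted p = 0.225), and -0.78 without LPS replicate 3 (limma's adjusted p = 0.0181). It was -0.26 with LPS replicates 1 and 2 both left out (limma's adjusted p = 0.659). Cort encodes cortistatin, a relative of somatostatin that binds the same receptors. It had values of 7.08, 7.29 and 7.07 after vehicle and 6.84, 6.96 and 7.00 after LPS, apart by a narrow margin, with a log2 fold change of -0.21 (95% confidence interval -0.44 to 0.01, limma's adjusted p = 0.367). Vip and Cck, which mark other classes of interneurons, overlapped between the groups. Vip had a log2 fold change of -0.33 (95% confidence interval -0.74 to 0.09), and Cck, which pyramidal neurons also express strongly, had -0.14 (95% confidence interval -0.36 to 0.09).

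Penk, Pdyn, Pnoc, Tac1 and Npff overlapped between the groups, unlike the tachykinin gene Tac2. Penk, the proenkephalin gene of striatal projection neurons, had values of 11.32, 11.26 and 11.39 after vehicle and 11.34, 11.38 and 11.33 after LPS. The 6 mice were nearly level, with a log2 fold change of 0.02 (95% confidence interval -0.15 to 0.20). Tac1, which encodes substance P and neurokinin A, had values of 11.05, 11.03 and 10.86 after vehicle and 10.85, 10.78 and 11.01 after LPS, and a log2 fold change of -0.10 (95% confidence interval -0.33 to 0.12). Pdyn, Pnoc and Npff, which encode dynorphins, nociceptin and neuropeptide FF, had log2 fold changes of -0.12, -0.16 and 0.20. The intervals of Penk, Pdyn and Tac1 did not reach a decrease of the size seen for Sst.

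Of 6 precursors of hypothalamic neurosecretory cells, 2 were lower without overlap between the groups, as were 10.3% of all clusters. Avp, which encodes the antidiuretic hormone vasopressin, had values of 7.46, 7.69 and 7.55 after vehicle and 6.75, 6.73 and 7.25 after LPS. LPS replicates 1 and 2 were the lowest, with LPS replicate 3 between them and the PBS mice. The log2 fold change was -0.66 (95% confidence interval -1.02 to -0.29, limma's adjusted p = 0.160), and -0.83 without LPS replicate 3 (limma's adjusted p = 0.00800). With LPS replicates 1 and 2 both left out Avp was at -0.32 (limma's adjusted p = 0.486). Trh, which encodes thyrotropin-releasing hormone at the head of the thyroid axis, had values of 7.46, 7.84 and 7.83 after vehicle and 7.35, 7.01 and 7.39 after LPS. Its lowest PBS mouse was close to its highest LPS mice, and its log2 fold change was -0.46 (limma's adjusted p = 0.270).

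Other neurosecretory genes overlapped between the groups. Oxt, which encodes oxytocin, had values of 6.75, 7.11 and 7.07 after vehicle and 6.37, 7.24 and 7.39 after LPS. LPS replicate 1 was the lowest of all mice and not above background, while LPS replicates 2 and 3 were the highest, and the log2 fold change of 0.02 had an interval from -0.61 to 0.65. Crh, which encodes the corticotropin-releasing hormone of the stress axis, had a log2 fold change of 0.01 (95% confidence interval -0.42 to 0.44). Ghrh and Gnrh1, at or near background, had -0.01 and 0.10.

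Precursors of feeding, arousal and reproduction, 7 in all, included 3 that were lower without overlap, as were 10.3% of all clusters. Pmch encodes melanin-concentrating hormone of the lateral hypothalamus. It had values of 8.99, 9.29 and 8.79 after vehicle and 8.37, 8.16 and 8.63 after LPS. Every LPS mouse was below the lowest PBS mouse, and the log2 fold change was -0.64 (95% confidence interval -1.04 to -0.24, limma's adjusted p = 0.197), or -0.76 without LPS replicate 3 (limma's adjusted p = 0.0341). It was -0.40 with LPS replicate 3 as the single LPS array (limma's adjusted p = 0.576).

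Hcrt encodes the orexins, which keep animals awake and come from cells beside those of Pmch. It had values of 7.22, 7.38 and 7.26 after vehicle and 6.99, 6.88 and 6.86 after LPS. Here LPS replicate 3 was the lowest mouse and spread within groups was small, with a log2 fold change of -0.38 (95% confidence interval -0.57 to -0.18) and the lowest adjusted p after Sst (limma's 0.136). Cartpt, which encodes the appetite-reducing peptide CART, had values of 8.40, 8.72 and 8.08 after vehicle and 7.80, 7.60 and 8.07 after LPS. PBS replicate 3 and LPS replicate 3 nearly met, and the log2 fold change was -0.57 (limma's adjusted p = 0.270).

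Gal and Nts, which encode galanin and neurotensin, overlapped between the groups, with log2 fold changes of -0.32 and -0.36 (limma's adjusted p = 0.308 and 0.407). Without LPS replicate 3 the log2 fold change of Nts was -0.55 (limma's adjusted p = 0.0381), without LPS replicate 2 it was -0.21 (limma's adjusted p = 0.722), and with LPS replicate 3 as the single LPS array it was 0.02, so that Nts was not lower in that mouse. Pomc and Kiss1, which encode proopiomelanocortin and kisspeptin, were at background, with log2 fold changes of 0.04 and 0.03.

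Among the remaining peptides Grp, which encodes gastrin-releasing peptide, had values of 8.89, 9.11 and 8.97 after vehicle and 8.75, 8.15 and 8.21 after LPS. In contrast to Npy, Tac2 and Avp, LPS replicate 1 was the mouse nearest the controls. The log2 fold change was -0.62 (95% confidence interval -1.02 to -0.22, limma's adjusted p = 0.211). Adcyap1, which encodes PACAP, had a log2 fold change of -0.18, and Nppc, which encodes C-type natriuretic peptide, had 0.05, both with overlapping groups. Nmu, which encodes neuromedin U, was at background, where its groups lay narrowly apart with a log2 fold change of -0.15. Nmb, Prok2 and Ucn, also at background, had log2 fold changes of 0.23, 0.07 and -0.07.

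**Figure D3:**
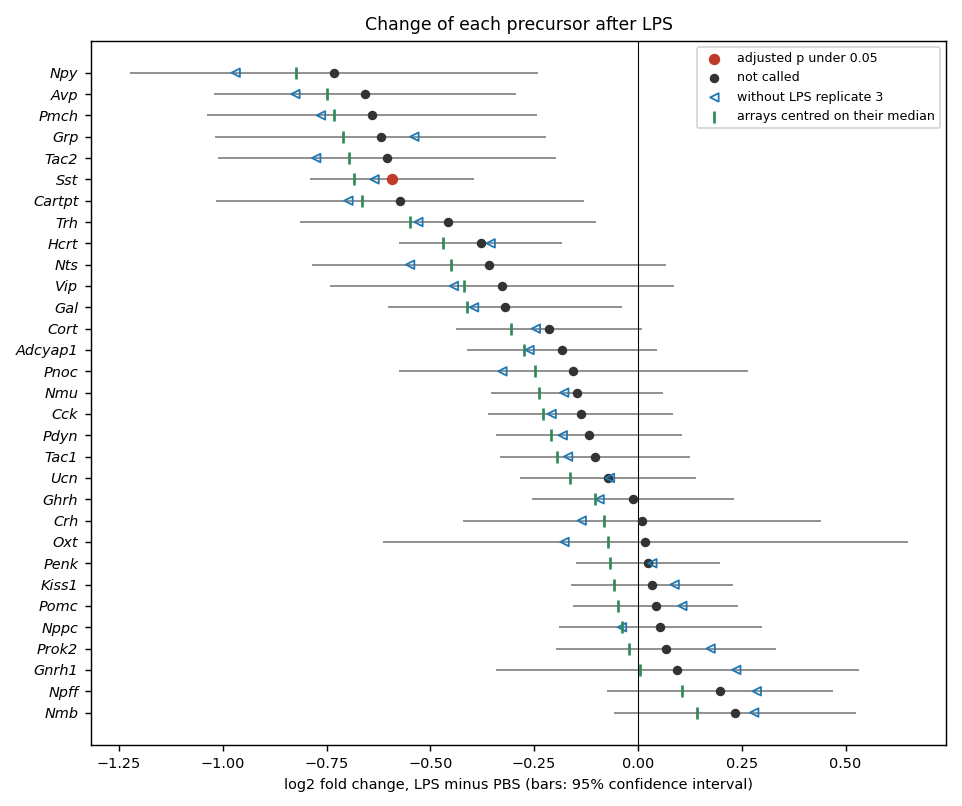
Log2 fold change of each member, LPS minus PBS, ordered by size, with 95% confidence intervals from limma as bars and Sst in red as the only gene with an adjusted p under 0.05. Open triangles leave out LPS replicate 3 and green ticks centre each array on its median, which shifts every member to the left.

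The 3 LPS mice contributed unequally. LPS replicate 3 was the LPS array nearest to the PBS mean in 21 of 31 members, against 45.4% of all clusters, and in 9 of the 11 members whose groups did not overlap. The other 2 were Hcrt and Grp. LPS replicates 1, 2 and 3 lay below all PBS arrays in 21, 19 and 14 members, and in 31.9%, 32.8% and 31.6% of all clusters. Array medians over all clusters were 7.09 and 7.11 in LPS replicates 1 and 2, and from 6.95 to 6.98 in the other 4 arrays. In a principal component analysis of all clusters LPS replicate 3, at -15.2 on the leading component, lay beside the PBS arrays (-25.2 to -16.1) and apart from LPS replicates 1 and 2 (32.9 and 48.3). The mean of LPS replicates 1 and 2 minus LPS replicate 3 was -0.71 for Npy, -0.51 for Tac2, -0.50 for Avp and -0.57 for Nts, and its median was -0.67 over 7 choroid plexus genes and -0.73 over 3 brainstem genes. The part of these differences between LPS mice in the lower levels of the members was not tested. Without LPS replicate 3, 6 members were lower (Sst, Npy, Tac2, Avp, Pmch and Nts), but so were 3.24% of all clusters. With LPS replicate 3 as the single LPS array, assumed to vary as the PBS arrays do, no member passed, and 3 were lower by limma's unadjusted p below 0.05, as were 5.25% of all clusters in that fit.

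The other parts of the peptide system were read in the same brains. By limma's unadjusted p below 0.05, 6.58% of all clusters were lower and 7.69% higher. None of 32 further neuropeptide precursors passed in limma or in the methods' t-test, with 2 lower and none higher by limma's unadjusted p below 0.05 and a median log2 fold change of -0.05. They were Rln3, which encodes relaxin-3 of the brainstem (-0.45, limma's adjusted p = 0.204), and Gast, which encodes gastrin (-0.21). Gast was near background, above its 95th percentile on the 3 PBS arrays only. The third in order of p was Pyy, at background, with a log2 fold change of -0.16. Only 7 of the 32 genes were above background on all arrays, so the lack of calls says little of the rest.

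None of 50 neuropeptide receptor genes passed in limma or in the methods' t-test. By limma's unadjusted p below 0.05, 3 were lower and none higher, against 6.58% and 7.69% of all clusters. The 3 were Oprl1, the nociceptin receptor (-0.33), Grpr, the receptor for gastrin-releasing peptide (-0.42), and Npy2r, a neuropeptide Y receptor (-0.24). Their adjusted p from limma ran from 0.225 to 0.269. The median of the list was -0.04. All 5 somatostatin receptor genes overlapped between the groups. Sstr4 was nearly level, at 10.30 ± 0.09 (SD, n = 3) in PBS mice against 10.28 ± 0.09 (SD, n = 3) in LPS mice, with a 95% confidence interval of the difference from -0.23 to 0.18. Sstr2 had a log2 fold change of -0.25 (limma's adjusted p = 0.475) and Sstr3 of 0.01. Sstr1 had -0.33 with a single low value of 6.63 in LPS replicate 2 against 7.77 and 8.16 in the other LPS mice, and Sstr5 was below the background median.

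None of 21 genes of peptide processing and secretory granules passed in limma or in the methods' t-test. By limma's unadjusted p below 0.05 Crhbp and Scg5 were lower and none was higher, against 6.58% and 7.69% of all clusters. Crhbp, which encodes the binding protein of corticotropin-releasing hormone and is made by many somatostatin interneurons, had a log2 fold change of -0.51 (limma's adjusted p = 0.281). Scg5, which encodes the chaperone of prohormone convertase 2, had -0.32, and Furin, a convertase of the secretory pathway, had -0.18. Of 12 peptidases that degrade neuropeptides none passed in limma or in the methods' t-test, while by limma's unadjusted p below 0.05 Thop1, which encodes thimet oligopeptidase, was lower (-0.47) and Anpep, an aminopeptidase of vessels and myeloid cells, was higher (0.34). The third was Dpp4, with a log2 fold change of 0.25.

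Neighbouring genes of the same neurons were read beside Sst. Of 15 other genes of somatostatin interneurons, none passed in limma or in the methods' t-test, with a median log2 fold change of -0.07. By limma's unadjusted p below 0.05, 1 of them, Crhbp, was lower, against 6.58% of all clusters. Tacr1, the substance P receptor of a subclass of these cells, had a log2 fold change of 0.35, and Rbp4 of -0.34. Lhx6, a transcription factor that specifies them, had -0.14 (95% confidence interval -0.36 to 0.08). Of the 15 genes 13 were above background on all arrays, while Chodl and Hpse were above it on none. Whole brain RNA does not show which cells made these transcripts. The values therefore cannot tell whether somatostatin interneurons kept their other transcripts.

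Of 13 genes of GABA interneurons none passed in limma or in the methods' t-test, with a median log2 fold change of -0.17. By limma's unadjusted p below 0.05, 4 were lower, against 6.58% of all clusters. Without overlap 6 were lower, against 10.3% of all clusters. Dlx1, a transcription factor, had a log2 fold change of -0.39, Pvalb, the marker of fast-spiking interneurons, of -0.35, and Lamp5 of -0.28, with adjusted p from 0.250 to 0.291 from limma. None of 15 pan-neuronal genes passed in limma or in the methods' t-test, with 1 lower by limma's unadjusted p below 0.05 and a median of 0.02. This was Uchl1, an abundant neuronal hydrolase, with a log2 fold change of -0.40 (limma's adjusted p = 0.123), while Snap25 and Tubb3 had 0.14 and -0.22. The mean of the pan-neuronal genes per array ran from 11.46 to 11.50 after vehicle and from 11.41 to 11.49 after LPS, and with the arrays centred on it Sst had a log2 fold change of -0.56 (limma's adjusted p = 0.0292).

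**Figure D4:**
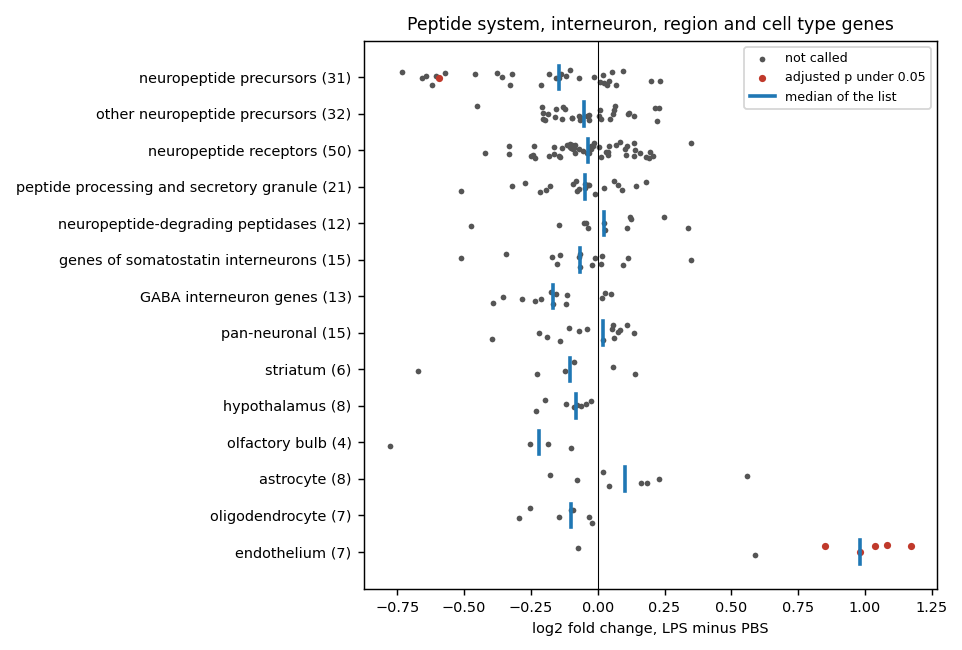
Log2 fold change, LPS minus PBS (x axis), of every measured gene in 14 lists, with the number of genes in brackets, the median as a blue bar and genes with an adjusted p under 0.05 in red. Sst is the only red point of these lists outside the endothelium, where 5 of 7 genes are red.

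Markers of regions and of other cell types were read in the same arrays. The mean of 6 striatal genes per array ran from 9.54 to 9.59 after vehicle and from 9.31 to 9.57 after LPS, and that of 8 hypothalamic genes, of which 1 was above background on all arrays, from 6.15 to 6.25 and from 6.05 to 6.18. For 4 genes of the olfactory bulb the means did not overlap, at 6.76 to 6.94 after vehicle and 6.43 to 6.57 after LPS. Of these 4 genes 2 were above background on all arrays. Among the 4, Eomes had a log2 fold change of -0.78 (limma's adjusted p = 0.132). In these 3 lists 2, 1 and 1 genes were lower at limma's unadjusted p below 0.05 and none was higher, against 6.58% and 7.69% of all clusters. The 4 genes of cortex and hippocampus, where many Sst cells lie, had means from 8.86 to 8.98 after vehicle and from 8.84 to 8.90 after LPS, with a median log2 fold change of -0.07 and none lower or higher at an unadjusted p below 0.05. The 6 cerebellar and 4 thalamic genes had medians of 0.03 and 0.02, with 1 higher and none lower in each, En2 at 0.37 and Lef1 at 0.29. The 3 brainstem genes had a median of -0.21 and none lower or higher by that threshold. No gene of these 7 region lists passed limma's adjusted threshold. The 7 measured pituitary genes were above background on all arrays in 0 cases. Astrocyte, oligodendrocyte and choroid plexus genes were above background in all cases and had 0 calls in limma among 8, 7 and 7, with medians of 0.10, -0.10 and -0.07. The choroid plexus means ran from 8.85 to 9.03 after vehicle and from 8.56 to 9.21 after LPS, so that the LPS mice lay on both sides of the PBS mice, while 2 astrocyte genes were higher and 2 oligodendrocyte genes lower at an unadjusted p below 0.05. Endothelial genes were higher by limma's adjusted threshold in 5 of 7 cases (median 0.98), against 0.652% of all clusters. By the same threshold 1 of 6 microglial genes, Itgam, and 1 of 9 leucocyte genes, Ptprc, were higher. The microglial median was 0.21. The leucocyte median was -0.13, with 5 of the 9 genes negative. At limma's unadjusted p below 0.05, 2 leucocyte genes were higher and 1 was lower. None of the leucocyte genes was above background on all arrays. The part of these cell types in the lower level of Sst was not tested.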

How the data were processed

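Whole brain RNA of 3 PBS and 3 LPS mice was measured on Affymetrix Mouse Gene 1.0 ST arrays, 1 per mouse. The values are log2 expression as deposited by the authors, who normalized them by RMA. Their methods describe a version adjusted for GC content and RMA 16, without stating which of them gave the deposited table, and nothing further was normalized here. Detection values per probe were not used here, so signal over background was judged against receptor genes, and precision is limited by having 3 arrays a group.

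Clusters were named from the platform annotation, of which 21789 name 1 gene, 1621 several and 12146 none. Groups and replicates were taken from the sample titles. LPS was compared with PBS in limma 3.58.1 (lmFit, then eBayes, in R 4.3.3) with two-sided p-values (Benjamini-Hochberg over all 35556 clusters, threshold 0.05). On simulated data of 3 against 3 arrays this procedure called 23.2% of 1.5-fold changes, 80% of 2-fold changes and 98.6% of 4-fold changes. It made 7 false calls among 35356 unchanged clusters. The simulated noise was independent and alike in all arrays, with no array set apart from its group as LPS replicate 3 was. These rates may therefore not hold for the measured arrays. The unpaired t test that the study names, run on the same values, is called the methods' t-test. The members and lists were chosen with earlier results of these data known. All members are named, and of each list of the peptide system and of neurons any gene called and the 3 with the smallest p. Some region and cell type genes were named after their values were seen. Sequences are those of RefSeq on GRCm38.p6, and those of Cartpt and Ucn were added after the motif search.

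Alternatives changed the test (the methods' t-test, a robust eBayes, an eBayes trend, weights for the arrays, the replicate number as a block, receptor gene background as a covariate, an adjusted p under 0.1), the scale (quantiles, centring on the median of an array or on pan-neuronal genes, an offset of 32 before the log), the clusters (dropping the dimmest 40%, keeping those with 1 gene name, averaging a gene's clusters) and the arrays (each left out, and LPS replicates 1 and 2 together).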

Additional observations from a re-analysis of the deposited data

How the results depend on the processing

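Across 21 alternatives Sst stayed lower in LPS-treated mice, at log2 fold changes from -0.68 to -0.51, and it passed its test in 12 of them. These 12 are not independent checks. An adjusted p under 0.1 only loosens the threshold of the main fit, and averaging a gene's clusters leaves Sst, with 1 cluster, unchanged. Alternatives that changed only the variance estimate, the threshold or the clusters tested could not move its log2 fold change. No alternative called a member higher. Sst did not pass in the methods' t-test (-0.59, adjusted p = 0.128), with each array centred on its median (-0.68, adjusted p = 0.0567 from limma), with the replicate block (-0.59, adjusted p = 0.152 from limma) and with LPS replicates 1 and 2 both left out (-0.51, adjusted p = 0.264 from limma), and 0 members were lower in each of these 4. With 1 array left out at a time Sst ranged from -0.64 to -0.57 (adjusted p from 0.0114 to 0.188 from limma), and the members lower ranged from 0 to 6, with 6 only without LPS replicate 3. Over the same fits the clusters higher ranged from 74 to 2640 and those lower from 0 to 1152, and the lower genes ranged from 0 to 1 among other precursors, from 0 to 2 among receptors, from 0 to 2 in processing, from 0 to 1 among peptidases, from 0 to 2 among genes of somatostatin interneurons, from 0 to 2 among GABA interneuron genes and from 0 to 1 among pan-neuronal genes. The highest value of each of these came without LPS replicate 3.

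Array weights called 4751 clusters higher and 3572 lower, and with them 11 members were lower, together with 1 other precursor, 8 receptors, 4 processing genes, 1 peptidase, 2 genes of somatostatin interneurons, 6 GABA interneuron genes and 3 pan-neuronal genes, while 2 other precursors, 2 receptors and 1 peptidase were higher. Clusters higher and lower numbered 4 and 1 in the methods' t-test, 141 and 10 with arrays centred on their medians, 76 and 4 with the replicate block, 356 and 64 at an adjusted p under 0.1, and 71 and 12 with LPS replicates 1 and 2 left out. Lower clusters numbered 13 after quantile normalization, 61 among clusters naming 1 gene and 48 with receptor gene background as a covariate. The cause was not tested in these cases, apart from the fewer samples or clusters that some settings use. Centring on the array median moved the median of all clusters to -0.09 and that of the members to -0.24, and 7 members changed sign, none of them called. The labels give no link between mice of the same replicate number. Deviations from the group means correlated at 0.09, -0.05 and 0.10 across clusters for the 3 numbers. Deviations within a group of 3 arrays depend on each other, so these correlations cannot decide whether mice of the same number shared a batch. LPS replicate 1 correlated best with PBS replicate 1, LPS replicate 2 did not correlate best with PBS replicate 2, and LPS replicate 3 did with PBS replicate 3.

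Without the 40% of clusters with the lowest mean 23 members remained, and of these 1 was lower. The interval of Oxt reaches a decrease as large as that of Sst, and signal at background limits the 7 members that no array measured above it.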
